A study of Mus musculus with 45 samples.

Results

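The keratins and the other structural genes of the skin barrier were followed through inguinal fat, a subcutaneous depot that lies directly under the skin. The set held every gene whose symbol in the probe annotation begins with Krt and a digit, with Sprr or with Lce, together with Lor, Ivl, Dsc1, Perp, Sfn and Trp63. It came to 64 genes of the 13840 genes with a probe of their own, each measured by 1 probe of 33012. By family there were 32 keratins, 13 Sprr genes, 13 Lce genes and 6 others. Flg and Dsg1a belonged to the rule but had no probe with a symbol of their own here, and neither had Krt1 and Krt10. Another 3 probes that carry several symbols were not used.

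The study asked how nutrition between birth and weaning shapes the development of fat. All mice were male C57BL/6J. Control pups grew in litters of 8 with dams on a breeder diet of 22 kcal % fat, and LUN pups (lactation under-nutrition) in litters of 8 whose dams were held to 50% of what control dams ate. LON pups (lactation over-nutrition) grew in litters of 4 with dams on a diet of 58 kcal % fat. Inguinal fat was taken at days 5, 10, 21, 56 and 112. From weaning all mice ate the same low fat chow, and from day 56 to day 112 all ate a high fat diet. Each of the 15 groups of diet and age was 1 RNA pool of 12 mice, hybridised to 3 arrays, so that all tests below compare pools. Their error is the spread between arrays, not between mice, except in the tests over diets or over ages. Those were run on the 15 pool means, and their error holds the diet-by-age differences and the spread between pools. In such bulk RNA, fewer cells of a type and less RNA per cell cannot be told apart.

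Keratins are the intermediate filaments of epithelial cells, built as pairs of a type I and a type II chain. Basal keratinocytes of the epidermis make Krt5, Krt14 and Krt15, and cells that leave the basal layer build a cornified envelope from loricrin (Lor), involucrin (Ivl) and the small proline-rich (Sprr) and late cornified envelope (Lce) proteins. Hair follicles add keratins of their own for the inner root sheath (Krt25, Krt27, Krt71) and the hair shaft (Krt31, Krt33a, Krt34, Krt35), whereas Krt7, Krt8, Krt18 and Krt19 belong to simple, single-layered epithelia such as those of glands and ducts. Adipocytes are mesenchymal cells whose main intermediate filament is vimentin.

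The arrays had median raw signals between 545 and 1459, and arrays of 1 pool correlated with each other at 0.806 to 0.963 on average. Markers of fat were measured as a check of the labels: the probe for Fabp4, the fatty acid binding protein of adipocytes, stood at or above the 99.3rd percentile of all probes in every pool, and that for Pparg, the master regulator of adipogenesis, at or above the 95th. In the deposited values the 15 LON arrays had a median of 9.815, while the other 30 arrays had medians from 9.779 to 9.784, so the LON arrays formed a set of their own. That array set and the LON diet cannot be told apart. On 3 arrays, 3 or more of the 64 genes were over 8-fold brighter than on both other arrays of the same pool (control day 112 array 2, LUN day 5 array 3 and LON day 21 array 3). These 3 arrays were also left out, in a fit in which all pools share 1 estimate of the spread. Of the 64 genes, 8, 3, 5, 4 and 0 then differed from control in LUN, from day 5 to day 112. In LON the counts were 26, 20, 5, 5 and 0 at the same ages. The share of all probes called in that fit is not given here. A change in these counts therefore cannot be read as particular to the 64 genes.

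The stretches directly upstream of 6 genes are shown as examples of genes that were higher in LON at days 5 and 10, Lor and Krt5 for the epidermis and Krt25, Krt27, Krt71 and Krt34 for the hair follicle. Each is the 120 bases before the annotated start, 5′ to 3′ on the transcript's strand, from RefSeq on build GRCm38.p6, and all 6 lie on the minus strand, at chr3:92083143-92083262 (Lor), chr15:101712906-101713025 (Krt5), chr11:99322952-99323071 (Krt25), chr11:99351119-99351238 (Krt27), chr15:101743098-101743217 (Krt71) and chr11:100041555-100041674 (Krt34). Capitals mark matches on either strand to TATAAA, the core of the TATA box, or to TGANTCA, the site of AP-1 factors.
Lor: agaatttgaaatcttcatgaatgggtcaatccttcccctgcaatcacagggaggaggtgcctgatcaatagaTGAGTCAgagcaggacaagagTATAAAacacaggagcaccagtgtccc
Krt5: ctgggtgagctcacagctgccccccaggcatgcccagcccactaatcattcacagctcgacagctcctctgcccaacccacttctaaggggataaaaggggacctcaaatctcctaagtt
Krt25: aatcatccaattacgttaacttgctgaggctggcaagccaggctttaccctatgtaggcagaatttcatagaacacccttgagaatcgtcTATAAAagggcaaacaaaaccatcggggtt
Krt27: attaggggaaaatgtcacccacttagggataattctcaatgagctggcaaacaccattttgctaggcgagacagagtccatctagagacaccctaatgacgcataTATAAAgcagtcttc
Krt71: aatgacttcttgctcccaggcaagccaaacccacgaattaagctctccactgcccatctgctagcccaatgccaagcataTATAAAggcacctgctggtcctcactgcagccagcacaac
Krt34: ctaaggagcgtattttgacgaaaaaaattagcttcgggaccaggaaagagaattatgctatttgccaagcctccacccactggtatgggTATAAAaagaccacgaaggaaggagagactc
TATAAA occurred in 5 of these 6 stretches and in 20 of the 47 genes of the set that had such a sequence, against 6.76% of 27021 promoters searched in the same way. TGANTCA occurred in Lor alone of the 6, in 5 of the 47 genes, and in 3.49% of all promoters. The matches to the 2 motifs share no bases in these stretches, and a match is a description of letters only.

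Over the 15 pools, 35 of the 64 genes (54.7%) differed beyond the spread of the arrays, against 28.3% of all probes (moderated F test in limma, Benjamini-Hochberg adjusted p under 0.05 over all 33012 probes, the threshold used throughout). They were 8 of 9 hair and inner root sheath keratins, all 5 keratins of activated epidermis or the outer root sheath, 3 of 4 basal genes, 5 of 6 simple epithelium keratins and 12 of 30 suprabasal and cornified genes, plus Perp and Krt87. None of the 4 keratins of other stratified epithelia passed. Of the 35 genes, 19 had their highest pool at LON day 5, 10 at LON day 10 and 5 at LUN day 56, as the heat map of log2 signals shows. In the 29 genes that did not pass, pool means ranged over 1.16 (Krt88) to 3.98 (Sprr2d) log2 units.

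**Figure D1:**
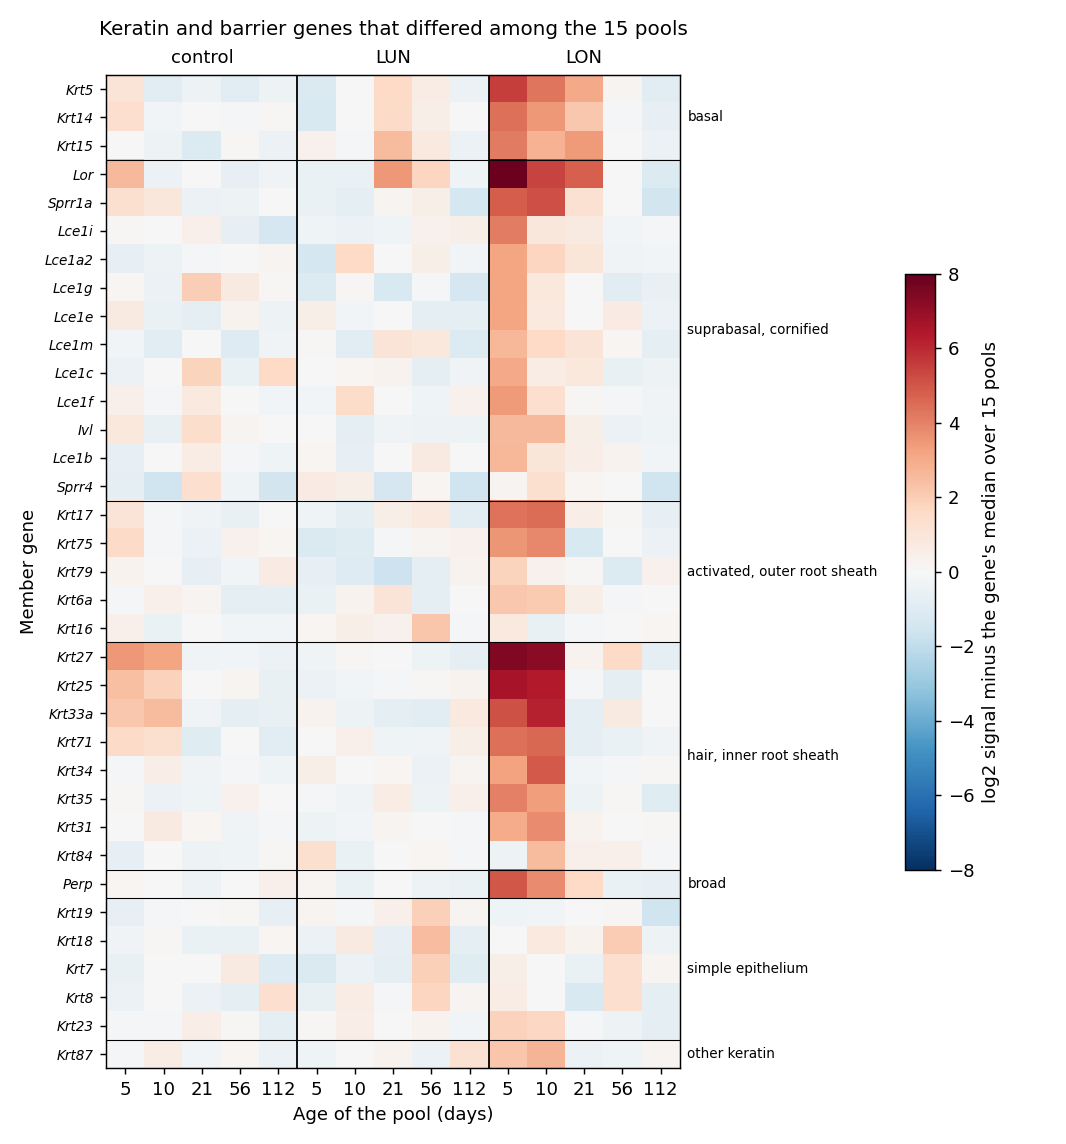
Mean log2 signal of the 35 genes that differed among pools (rows, grouped by class) in each of the 15 pools (columns, age in days within diet), relative to the gene's own median over the pools. The darkest red cells, in the LON pools of days 5 and 10, belong to basal, cornified and hair keratins, and higher values of Krt7, Krt8, Krt18 and Krt19 at LUN day 56 stand below them.

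At day 5 the LON pool had far higher signals of several epidermal and hair follicle genes than the control pool. Higher in LON were 23 of the 64 genes (1.06% of all probes were higher) and lower were 0 (0.703% of probes), with a median difference of 0.93 log2 units over the 64 genes against 0.02 over all probes. The 23 comprised 8 of 30 suprabasal and cornified genes, 7 of 9 hair keratins, 3 of 4 basal genes, Krt6a, Krt17, Krt23, Perp and Krt87. In each of the 23 the LON arrays lay above all control arrays, but a test on the same arrays had picked these genes. The share of all probes without overlap is not given here, so the lack of overlap is a description only. The same limit holds for other called genes whose arrays are said below not to overlap. With any 1 array left out 17 to 20 genes passed, and Krt6a and Sprr1a lost their call whichever array was left out. Lce1g lost it without 5 of the 6 arrays in turn, Krt33a without 4, Lce1c without 3, and Krt23 and Lce1i without 1.

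The largest difference was that of Lor, the main protein of the cornified envelope. Its normalized signals were 2630, 2831 and 2812 on the control arrays and 79520, 94230 and 157100 on the LON arrays of day 5. The groups lay far apart, a log2 difference of 5.26 ± 0.35 (SE, n = 3 arrays a pool) or 38.3-fold (limma, adjusted p = 3.15e-12). Perp, a membrane protein of desmosomes in stratified epithelia, had signals of 953.1, 469.5 and 412.6 in control and 13540, 14890 and 18240 in LON, 4.76 ± 0.44 log2 units higher (27.1-fold, limma adjusted p = 4.18e-09). Sfn, the 14-3-3 protein of stratified epithelia, differed by 0.55 ± 0.54 and did not pass (limma, adjusted p = 0.845).

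Among the basal genes, Krt5 gave 2635, 1290 and 1798 on the control arrays and 40810, 39710 and 43270 on the LON arrays, 4.50 ± 0.44 log2 units higher (22.6-fold, limma adjusted p = 1.28e-08). Its partner Krt14 gave 4236, 3945 and 5398 against 32520, 40190 and 41340, a difference of 3.08 ± 0.54 (8.43-fold, limma adjusted p = 0.000682). Krt15, a keratin of basal cells and of the follicle bulge, gave 306.3, 454.4 and 323.7 against 5829, 6285 and 7718 (18.4-fold, limma adjusted p = 1.04e-07). All 3 basal keratins were thus higher on every LON array. Trp63, the transcription factor of the basal layer, was between 278.6 and 772 in control and between 304.2 and 445.5 in LON, with overlapping arrays and a difference of -0.14 ± 0.59 (limma, adjusted p = 0.984).

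The hair keratins moved with them. Krt25, an inner root sheath keratin, had 3946, 3935 and 5700 in control and 68150, 97460 and 81450 in LON, 4.19 ± 0.43 log2 units higher (18.3-fold, limma adjusted p = 3.59e-08). Krt27, of the same sheath, had 5001, 4297 and 2808 against 60360, 59330 and 58840 (15.2-fold, limma adjusted p = 0.000504). Krt35, a keratin of the hair cortex, had 726.8, 288.7 and 465.4 against 6287, 7208 and 6872 (14.7-fold, limma adjusted p = 9.76e-07). The other 4 hair keratins that passed, Krt34, Krt31, Krt33a and Krt71, were 7.32-fold to 10.0-fold higher, and Krt82 and Krt84 did not pass. Krt17, of the outer root sheath and of activated epidermis, was 9.91-fold higher.

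Of the cornified envelope genes, 6 Lce1 genes (Lce1a2, Lce1b, Lce1c, Lce1f, Lce1g and Lce1i) and Sprr1a were higher in LON at day 5, by 7.79-fold to 16.0-fold. Lce1 and Sprr2 genes are close copies within their families, so their probes may share signal and are uncertain as separate measurements. The size of the Lce1i difference moved most with 1 array: its LON signals were 8326, 149800 and 8357, and without the second of these arrays the difference was 2.61 log2 units in place of 4.00 and did not pass (limma, adjusted p = 0.0953). Ivl had 1050, 395.9 and 657.5 in control and 1353, 2368 and 2913 in LON, 1.70 ± 0.65 log2 units apart, and did not pass (limma, adjusted p = 0.239). Dsc1, a desmosomal cadherin of the upper epidermis, differed by -0.09 ± 0.51 (limma, adjusted p = 0.989).

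**Figure D2:**
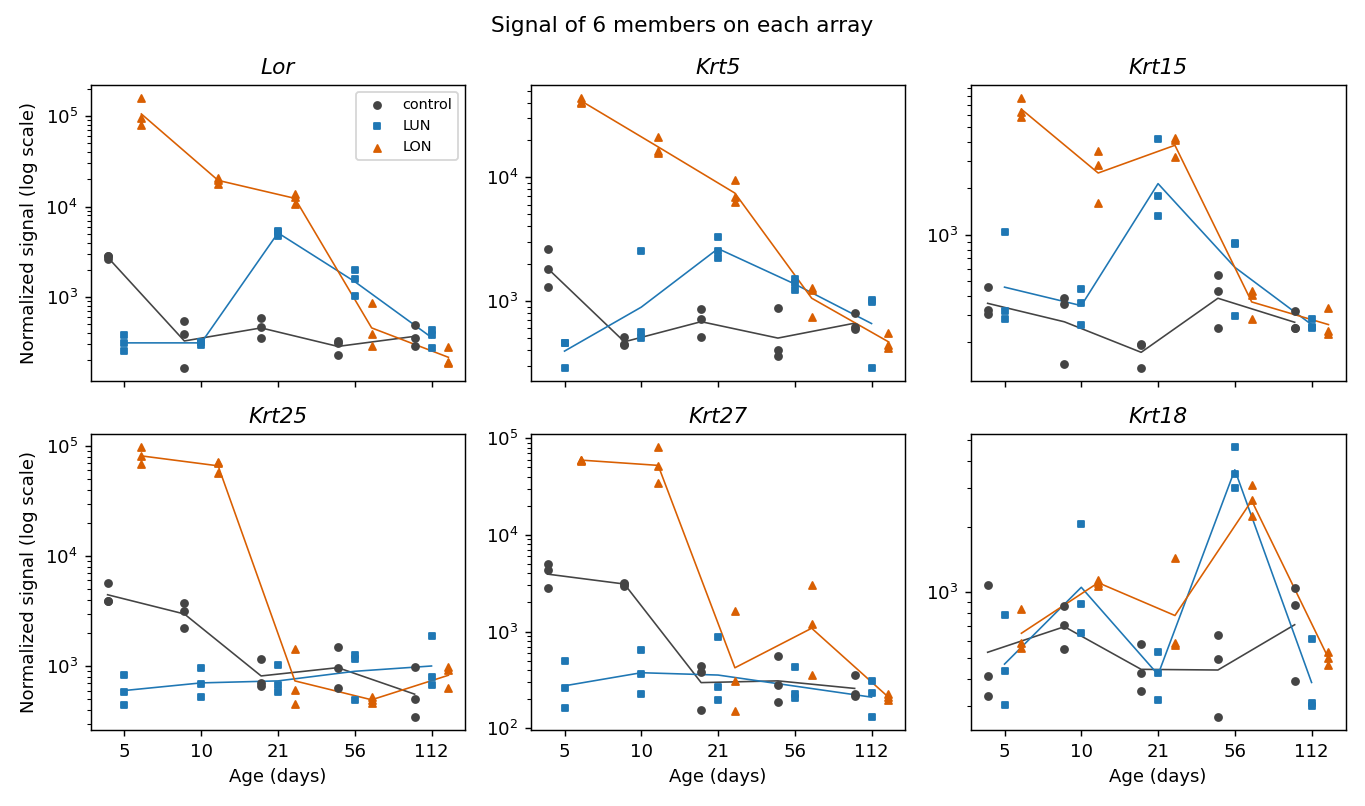
Normalized signal (log scale) of 6 genes on each of the 45 arrays by age in days, with the 3 arrays of a pool as points and lines through the pool means of log2 values. Lor and Krt5 in LON lie above control at days 5, 10 and 21, Krt25 and Krt27 at days 5 and 10, with overlapping arrays at day 21, and Krt18 is high at day 56 in LUN and LON.

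At day 10 the same groups of genes were high in the LON pool. There were 17 higher genes (0.66% of all probes) and 0 lower genes (0.0788% of probes), and the median of the 64 genes was 0.64 against -0.04 log2 units for all probes. Lor had 543, 388 and 164 in control and 20870, 17900 and 19590 in LON, 5.90 ± 0.35 log2 units higher (59.6-fold, limma adjusted p = 7.57e-14). Krt5 had 440.7, 513.7 and 448.7 against 15710, 16210 and 21070 (37.5-fold, limma adjusted p = 2.41e-10). No control array of either gene came near a LON array. With any 1 array left out 15 genes passed, Krt87 and Sprr1a being lost each time.

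Hair keratins made up 7 of the 17 genes, and their median difference was 3.58 log2 units over the 9 measured. Krt34 of the hair cortex had 475.7, 1163 and 685.9 in control and 15880, 15060 and 15610 in LON (21.4-fold, limma adjusted p = 3.13e-11). Krt75, which marks the companion layer of the follicle, had 449.6, 770.9 and 1015 against 8790, 11410 and 12300 (15.2-fold, limma adjusted p = 0.000136). Krt17 was 23.0-fold, Krt25 22.2-fold and Krt27 16.9-fold higher. Among cornified genes only Lor, Sprr1a and Ivl passed at this age: Ivl had 255.5, 239.3 and 205.9 in control and 2333, 1949 and 2194 in LON (9.25-fold, limma adjusted p = 0.00504).

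The LON pools of days 5 and 10 also differed from each other, in a comparison chosen after the values were seen. At day 10 the cornified genes Lor, Lce1i and Lce1f were lower than at day 5, with changes of -2.44, -3.15 and -2.04 log2 units (limma, adjusted p = 2.1e-05, 0.0238 and 0.0294). The hair keratins Krt84 and Krt34 were higher, by 2.93 and 1.70 (limma, adjusted p = 0.0126 and 0.00175). These were all the calls among the 64 genes, 2 higher and 3 lower, where 1.9% of probes were higher and 0.924% lower. Krt84 in LON went from 240.1, 248.1 and 245.6 at day 5 to 1983, 1842 and 1777 at day 10.

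At day 21 no hair keratin passed between LON and control (median 0.04 log2 units over 9), while Lor, 3 basal keratins and Perp still did. Of the 30 suprabasal and cornified genes 1 passed, Lor, and their median was -0.18. Higher than control were 5 genes (0.918% of all probes), Lor, Krt15, Krt5, Krt14 and Perp, and lower were 0 (0.485% of probes). Lor had 587.5, 462.9 and 347.9 in control and 10570, 13750 and 12780 in LON (27.0-fold, limma adjusted p = 3.15e-11). Krt15 had 193.3, 191.8 and 135.4 against 4124, 4254 and 3183 (22.3-fold, limma adjusted p = 4.56e-08), and Krt5 was 11.0-fold higher (limma, adjusted p = 5.46e-06). The 3 genes kept their call when any array was left out, whereas Krt14 lost it without 5 of the 6 arrays in turn and Perp without 4. Fitted on the 6 arrays of this comparison alone, 2 genes passed.

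Krt25 at day 21 had 697.5, 1161 and 662.9 in control and 451.2, 1441 and 611.7 in LON, with overlapping arrays. Between the LON pools of days 10 and 21, 13 genes were lower and 0 higher (1.41% and 1.15% of probes), among them all 7 hair keratins named above. The changes were -6.96 log2 units for Krt27, -6.84 for Krt33a and -6.49 for Krt25 (limma, adjusted p = 7.73e-09, 2.06e-08 and 8.03e-13). Lor, Krt5, Krt14 and Krt15 were not among the 13. The change of the LON difference itself between days 10 and 21 was tested too: it was smaller at day 21 for 7 genes (0.324% of probes) and larger for 0 (0.0515% of probes). The 7 were Krt25, Krt34, Krt35, Krt71, Krt17, Krt75 and Ivl, with changes of -3.11 (Krt71) to -4.67 (Krt75) log2 units. Both of these comparisons were chosen after the values were seen.

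**Figure D3:**
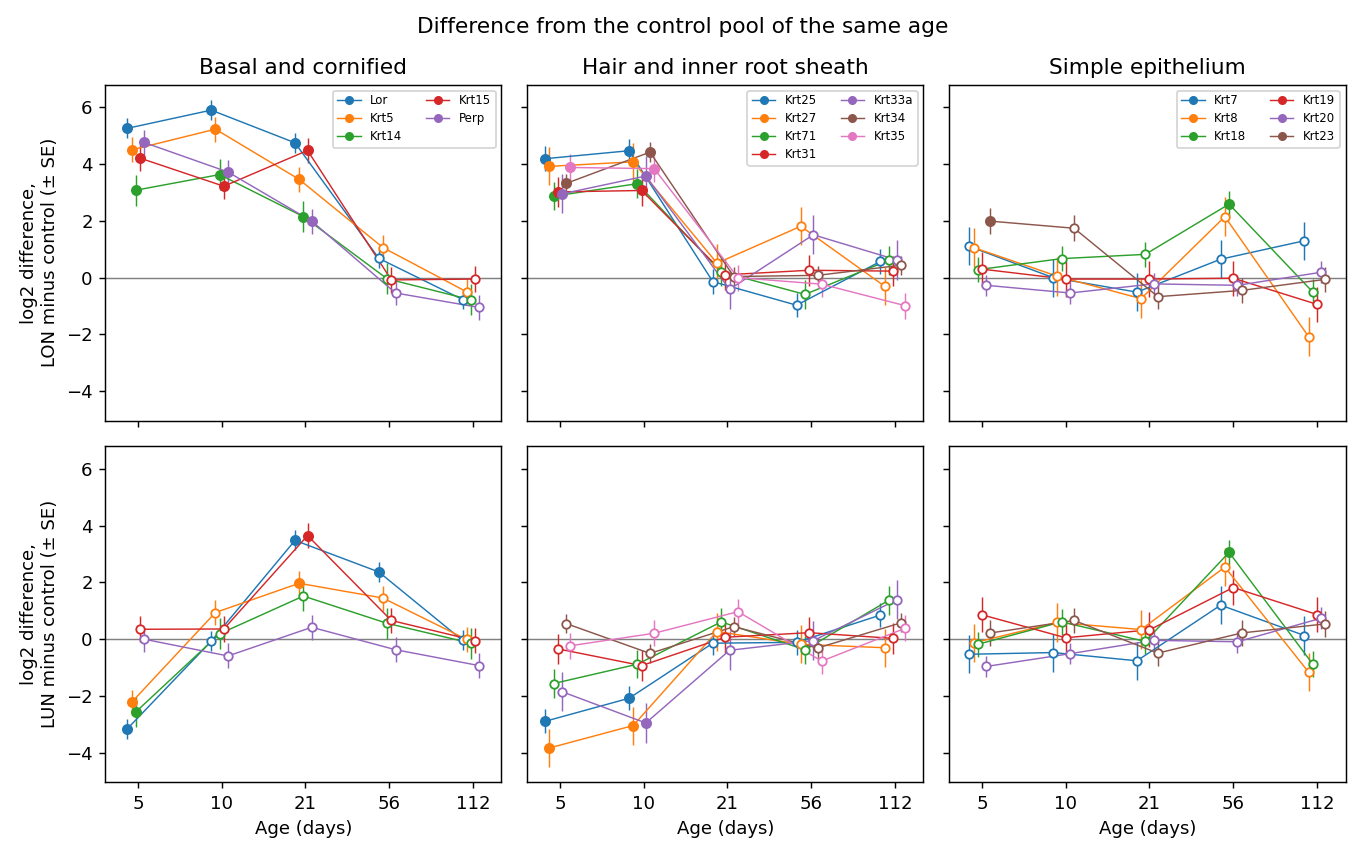
Log2 difference from the control pool of the same age (± SE, 3 arrays a pool) for LON (upper row) and LUN (lower row) by age in days. Filled points passed the test: in LON, Lor stayed at 4.75 to 5.90 log2 units through day 21 while no hair keratin passed at day 21. In LUN the filled points lie below 0 at days 5 and 10 and above 0 at days 21 and 56.

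Other genes of the skin outside the set were measured in the same pools. Of 39 hair follicle genes, mostly hair keratin-associated proteins (Krtap), 20 were higher in LON at day 5 (median 1.98 log2 units), 22 at day 10 (median 2.60) and 0 at day 21 (median 0.10). Krtap19-5, a matrix protein of the hair shaft, was 4.98 ± 0.48 log2 units higher at day 5 (limma, adjusted p = 1.12e-08). The summed signal of the 39 genes ran from 47500 to 62100 on control arrays and from 248000 to 258000 on LON arrays at day 5, and from 66600 to 74900 against 638000 to 670000 at day 10. At day 21 it was 35600 to 44000 in control and 39800 to 43300 in LON. The LON arrays were thus above control at days 5 and 10 and within about the control range at day 21, as were the hair keratins.

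Of 33 further epidermal genes, 8 were higher in LON at day 5 (median 0.90), 1 at day 10 (median 0.61) and 2 at day 21 (median 0.30). Among them were Elovl4, an enzyme that makes the very long fatty acids of barrier lipids (3.59 ± 0.43 at day 5), Asprv1, a protease of the cornified layer (2.89 ± 0.47), and Pkp1, a desmosomal plaque protein (2.33 ± 0.52). Of 8 melanocyte genes, 3 were higher at day 5: Tyrp1, Pmel and Dct, by 3.66, 2.49 and 2.20 log2 units (limma, adjusted p = 0.00159, 0.00491 and 0.00964). The median of the 8 was 0.22 at day 5, and 0 were called at day 10 (median 0.13) or day 21 (median 0.41). The summed melanocyte signal at day 5 was 2630 to 4700 on control and 5750 to 14800 on LON arrays. At day 10 it overlapped, from 2910 to 5100 on control and from 4320 to 6090 on LON arrays. Not all lists of skin genes rose. Of 9 dermal fibroblast genes, 1 was higher and 1 lower in LON at day 5 (median 0.07), and 0 were called at day 10 (median -0.2). Of 7 sebaceous gland genes, 1 was higher at day 5 (median 0.32) and 0 at day 10 (median 0.34). Skeletal muscle genes were higher in LON at day 10 (10 of 10, median 3.54) and also in LUN (10 of 10, median 2.18), but not at day 5, where 2 were lower in LON. Whether skin or muscle was carried into the dissected fat was not tested.

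The early LON difference was larger than the later one in the same fit, in a comparison chosen after the values were seen. Its mean at days 5 and 10 exceeded that at days 56 and 112 for 18 genes (0.367% of all probes) and fell below it for 0 (0.0212% of probes), with the largest contrasts in Lor (5.62 ± 0.35 log2 units) and Perp (5.04 ± 0.44).

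In the LUN pools the early changes ran the other way. At day 5, 6 genes were lower than in control (0.86% of probes) and 0 higher (0.554% of probes): Krt27, Lor, Krt25, Krt75, Krt14 and Krt5. Krt27 had 162.5, 260.1 and 491.6 in LUN against the 2808 to 5001 of control, a difference of -3.83 ± 0.67 log2 units (14.3-fold, limma adjusted p = 0.000889). Lor had 308.8, 253.2 and 383.6 in LUN against 2630 to 2831 in control (8.87-fold lower, limma adjusted p = 7.69e-07). Krt25 had 839.4, 576.7 and 445.6 (7.43-fold lower, limma adjusted p = 9.97e-05). All LUN arrays of these 3 genes lay below all control arrays. The 33 further epidermal genes did not follow: 1 was higher and 0 lower in LUN at day 5 (median -0.18). At day 10, 0 of them were called (median -0.01). Their summed signal at day 5 was 90400 to 126000 on LUN arrays and 77000 to 93400 on control arrays. The LUN and LON differences share the control pool, whose own Lor signal was 8.46-fold higher at day 5 than at day 10.

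LUN array 3 of day 5 was bright for Sprr2d (14860, against 248.1 and 404.1 on the other arrays of the pool), Sprr1b, Sprr4, Sprr1a, Krt84, Krt90, Krt33a and Lce1m. Without the 3 discordant arrays the count at day 5 was 8, given without the share of all probes called in that fit. With any 1 array left out Krt75 lost its call in 4 of 6 cases and Krt14 in 1. Fitted on the 6 arrays of this comparison alone, 0 genes passed.

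At day 10, 3 genes were lower in LUN (0.818% of probes) and 0 higher (0.573% of probes), all of the hair follicle. Krt27 had 2982, 3119 and 3201 in control and 228.4, 364.2 and 637.1 in LUN (8.25-fold lower, limma adjusted p = 0.0112). Krt33a, of the hair cortex, had 3136, 2717 and 3299 against 516.2, 397.1 and 296.9 (7.73-fold lower, limma adjusted p = 0.0189), and Krt25 was 4.24-fold lower (limma, adjusted p = 0.00549). The control and LUN arrays did not overlap in any of the 3. The 39 other hair follicle genes had 7 lower and 0 higher members in LUN at this age (median -0.94), among them Krtap19-1 (-3.59 ± 0.77) and Krtap19-3 (-3.45 ± 0.47). At day 5 only 1 of the 39 was lower in LUN and 0 higher (median -0.51). Their summed signal at day 5 overlapped, from 29200 to 83800 on LUN arrays and from 47500 to 62100 on control arrays. Without control array 2 of day 10 none of the 3 keratins passed, Krt33a lost its call without 5 of the 6 arrays in turn and Krt27 without 3, and on the 6 arrays alone 1 gene passed.

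At day 21 the LUN pool was higher than control in 3 genes (1.57% of probes) and lower in 1 (1.14% of probes). Lor had 4727, 5215 and 5388 in LUN against 347.9 to 587.5 in control, 3.48 ± 0.35 log2 units higher (11.2-fold, limma adjusted p = 4.71e-08). Krt15 had 4201, 1325 and 1782 in LUN (12.5-fold, limma adjusted p = 1.85e-06) and Krt5 2540, 2235 and 3289 (3.91-fold, limma adjusted p = 0.00687). Every LUN array of these 3 genes lay above every control array. The 3 are also the genes with the largest LON differences at this age, in comparisons that share the control pool, and no hair keratin passed in LUN (median 0.27 over 9). Lce1g was the gene that was lower, with 601.1, 8170 and 2515 in control and 236.3, 365.6 and 197 in LUN, and its call was lost without control array 2, LUN array 1 or LUN array 3 (limma, adjusted p up to 0.163 with 1 array left out). Fitted on the 6 arrays alone, 1 gene passed.

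At day 56, after the mice had eaten the same chow since weaning, 1 of the 6 simple epithelium keratins, Krt18, was higher than control in both LUN and LON. In LUN, 3 genes were higher (0.161% of probes) and 0 lower (0.0424% of probes): Krt18, Krt16 and Lor. In LON, 1 gene was higher, Krt18 (0.654% of probes), and 0 lower (0.881% of probes). Krt18 had 639.4, 491.3 and 268.3 in control, 4623, 3014 and 3485 in LUN and 2228, 2648 and 3101 in LON. LUN was 3.06 ± 0.45 log2 units above control (8.32-fold, limma adjusted p = 0.000137) and LON 2.59 ± 0.45 (6.01-fold, limma adjusted p = 0.000797). Both differences stand against the same control pool, and the arrays of control overlapped with neither.

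Krt8, the partner of Krt18, had 1241, 916 and 745.1 in control, 5009, 6643 and 5019 in LUN and 3679, 4619 and 4333 in LON. Its arrays did not overlap with control either, but its differences of 2.54 ± 0.68 and 2.15 ± 0.68 log2 units did not pass (limma, adjusted p = 0.127 and 0.0991). Krt19 had 3643, 3542 and 3501 in LUN and 642.5, 749.7 and 2125 in control (1.82 ± 0.62, limma adjusted p = 0.334). Krt7 differed by 1.20 ± 0.67 in LUN and 0.65 ± 0.67 in LON (limma, adjusted p = 0.717 and 0.748). Between the LON pools of days 21 and 56, in a comparison chosen after the values were seen, Krt8 and Krt18 were higher at day 56, by 2.54 and 1.75, and Lor, Krt15, Krt5, Krt14 and Perp lower, with changes from -2.11 (Perp) to -4.75 (Lor). That made 2 higher and 5 lower genes, where 0.763% of probes were higher and 1.09% lower.

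Krt16, a keratin of activated epidermis, had 7366, 1288 and 1062 in LUN at day 56 and 340.3 to 578.5 in control, and lost its call without the first of these LUN arrays or without control array 1 or 3 (limma, adjusted p up to 0.0933 with 1 array left out). Lor had 1566, 1027 and 1998 in LUN and 229.5 to 328.2 in control (5.18-fold, limma adjusted p = 0.000173). Of 13 general epithelial genes, Epcam, an adhesion molecule of simple epithelia, was higher in LON (2.04 ± 0.53, limma adjusted p = 0.0400) and none was called in LUN. Epcam was not particular to day 56, since it was higher in LON at day 5 too (2.57 ± 0.53, limma adjusted p = 0.00466). Of the same 13 genes, 2 were higher in LON at day 5 (median 0.35) and 1 at day 10 (median 0.07). Of 7 mammary genes, Csn3, a milk casein, was higher in both, by 2.81 ± 0.52 in LUN and 2.11 ± 0.52 in LON (limma, adjusted p = 0.00499 and 0.0297). Glycam1 of the same list was lower in LUN (-1.02 ± 0.21). The median of the 7 was 0.42 in LUN and -0.02 in LON. Their summed signal was 68000 to 82900 in LUN and 93400 to 147000 in LON, against 117000 to 137000 in control. Of 5 mesothelial genes 0 were called. The same 2 pools had high skeletal muscle genes: 10 of 10 were higher than control in each, with medians of 3.49 in LUN and 5.17 log2 units in LON. The part of these tissues in the Krt18 difference was not tested. Fitted on the 6 arrays of each comparison alone, 0 genes passed in LUN and 0 in LON. Without the 3 discordant arrays, none of which belongs to day 56, 5 genes passed in LON. The share of all probes called in that last fit is not given here.

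At day 112, after the high fat diet, 0 of the 64 genes differed in limma between LUN and control (0.176% of probes higher and 0.376% lower) or between LON and control (1.48% and 0.897%). At an unadjusted p under 0.05 there were 6 higher and 6 lower genes in LUN (7.92% and 6.44% of probes) and 0 higher and 6 lower in LON (9.11% and 7.02% of probes). The methods' t-test at the same level called 7 in LUN and 0 in LON, and after Benjamini-Hochberg adjustment 0 in each. Lor had 489.8, 350.8 and 290.1 in control, 383.8, 435.5 and 273.6 in LUN and 187.3, 283.4 and 188.7 in LON. Krt8 on control array 2 was 22680, against 1245 and 2831 on the other arrays of that pool. The skeletal muscle genes were lower in both (10 of 10, medians -2.34 and -4.37).

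**Figure D4:**
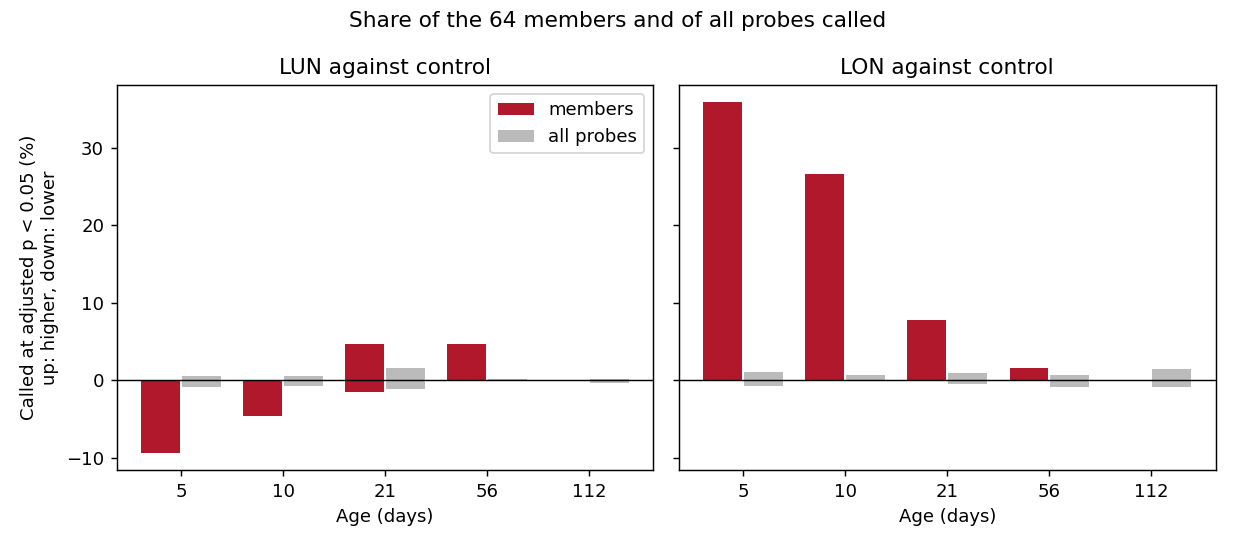
Share of the 64 genes (red) and of all 33012 probes (grey) that were called higher (upward bars) or lower (downward bars) than the control pool of the same age in LUN and LON, in percent. At LON day 5 the share is 35.9% of the genes against 1.06% of the probes, and at day 112 no gene was called in either diet.

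With the 3 diets as replicates of an age, the hair keratins Krt27, Krt33a and Krt71 were higher at days 5 and 10 than at days 56 and 112, by 3.64 ± 0.90, 2.76 ± 0.77 and 2.30 ± 0.66 log2 units (limma on 15 pool means, adjusted p = 0.0235, 0.0421 and 0.0485). These 3 higher and 0 lower genes compare with 4.95% and 4.14% of probes, a share near the background. Without the LON pools or without the control pools 0 genes passed, and without the LUN pools 4. In the control arrays alone, 5 genes were higher at the early ages, Krt27, Krt33a, Krt25, Krt71 and Lor (5.63% of probes), and 0 lower (4.86% of probes), with Krt27 3.63 ± 0.48 log2 units higher. Within control, Lor and Krt5 were also lower at day 10 than at day 5, with changes of -3.08 and -1.97 log2 units (2 lower and 0 higher genes, against 0.106% and 0.245% of probes). Krt27 in control went from 2808 to 5001 at day 5 and 2982 to 3201 at day 10 to 154.3 to 436.3 at day 21. No control array of days 5 or 10 overlapped with those of the later ages in this gene.

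Successive ages over the 3 diets gave 0 calls among the 64 genes in limma. The share of probes that were higher and lower was 0% and 0% at day 10 against day 5, 0.315% and 0.536% at day 21 against day 10, 0.285% and 0.176% at day 56 against day 21, and 0.248% and 0.13% at day 112 against day 56. Over the 5 ages together, LUN differed from control in 0 genes (0% and 0% of probes) and LON in 0 (0.2% and 0.0151% of probes), while at an unadjusted p under 0.05 LON had 12 higher and 2 lower genes (6.54% and 7.19% of probes). The LON differences of Lor and Krt5 over all ages were 3.16 ± 1.25 and 2.75 ± 0.91 log2 units.

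Members of a class moved together to unequal degrees. Over the 15 pools the median correlation between pairs was 0.87 for the 9 hair keratins, 0.52 for the 4 basal genes and 0.09 for the 30 suprabasal and cornified genes. Without the LON pools of days 5 and 10 it was 0.05 for the hair keratins and 0.55 for the basal genes, so the former rested on those 2 pools. The genes outside the set whose 15 pool means were most like the mean of the suprabasal genes were Tmem54, Asprv1, Esrp1, S100a14, Pkp1, Calm4, Vsig8, Cysrt1, Klk7 and Prr9 (Pearson r = 0.855 to 0.899 over 15 pools). Without the same 2 pools Tmem54 had an r of 0.67 and the other 9 between -0.02 and 0.37. These correlations are descriptions over pools that share their normalization.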

How the data were processed

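Total RNA of inguinal fat, 1 pool of 12 male mice for each of 15 groups, was transcribed to labelled cRNA and measured by chemiluminescence, in 1 channel, on 45 Mouse Genome Survey arrays of Applied Biosystems. The authors deposited raw intensity values without normalization between arrays, and log2 values that they had quantile-normalized. How the scanner corrected the background is not stated in what was read here, and detection calls were not used here. The normalization determines the level of every gene, since it gives all arrays the same distribution of signals. Here the raw intensities, none at or below 0, were quantile-normalized over the 45 arrays and taken to log2 without an offset, which gave a correlation of 0.99981 with the deposited log2 values. Signals are not compared between probes.

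Groups were taken from the labels. In limma 3.58.1 (R 4.3.3), 1 mean per group was fitted to 33012 probes, and p-values (two-sided) were adjusted over all probes by Benjamini-Hochberg at a threshold of 0.05. Ages over diets, and diets over ages, were tested on the 15 pool means with age and diet as additive terms and 8 residual degrees of freedom. The fits were tested on simulated data. Fold values are 2 to the power of the log2 difference of means. The number of arrays limits the precision. Gene names came from the platform annotation, updated by gene ID, and all 64 genes matched RefSeq. The brightest probe stood for a gene with several, but every gene of the set had 1.

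The genes named were a fixed list of basal, suprabasal, simple epithelium and broad markers, the called genes with the largest differences, up to 4 called genes of each other marker list, and the 10 genes most like the suprabasal mean. Genes and arrays named for values that stood out were chosen after the values were seen. The set, the lists and these rules were chosen with earlier results of these data known. Alternatives were 3 other normalizations, an offset of 100, a filter on dim probes, other fits, the t-test named in the methods and leaving out arrays. The alternative without 3 discordant arrays was added after seeing the data. Same-numbered arrays of 2 pools share only a number: their deviations correlated at -0.078 to 0.102. Plots were drawn with matplotlib 3.10.9.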

Additional observations from a re-analysis of the deposited data

Results flagged for a closer look

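The LON difference from control was not the same at all ages, by a test of early against late ages in the same limma fit. This comparison was chosen after the values were seen, with the high early LON values known. The LON difference was larger at days 5 and 10 than at days 56 and 112 for 18 of the 64 genes and smaller for 0. The largest contrasts were those of Lor (5.62 log2 units, adjusted p = 1.82e-12), Perp (5.04, adjusted p = 5.44e-09), Krt5 (4.58, adjusted p = 1.99e-08), Krt25 (4.53, adjusted p = 1.59e-08) and Krt35 (4.47, adjusted p = 1.17e-07). Each compares 4 LON pools with 4 control pools of 3 arrays. With 3 arrays a pool, Dixon's test for an outlying array was not run.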

How the results depend on the processing

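No log2 difference of a called gene changed sign under another normalization, the offset or the filter on dim probes. The counts of genes called, out of 64, depended on the setting as follows, given without the share of all probes called under each setting. With only probes above the median signal, which drops dim genes from the test, the counts were 2 at LUN day 21, 1 at LUN day 56, 15 at LON day 5, 11 at LON day 10, 3 at LON day 21, 1 at LON day 112 and 20 for any difference among pools. Cyclic loess gave 2 at LON day 56 and 2 at LON day 112. Fits of only the 6 arrays compared, with fewer degrees of freedom, gave 0, 1, 1 and 0 in LUN at days 5, 10, 21 and 56, and 2 and 0 in LON at days 21 and 56. The methods' t-test at an unadjusted p under 0.05 called 15, 9, 9, 8 and 7 genes in LUN from day 5 to day 112, and 26, 8 and 4 in LON at days 10, 21 and 56. After Benjamini-Hochberg it called 0, 0, 1 and 0 in LUN at days 5, 10, 21 and 56, and 14, 7, 0 and 0 in LON at these ages. Without 1 array in turn the counts ran in LUN from 5 to 6 at day 5, 0 to 3 at day 10, 3 to 5 at day 21, 2 to 3 at day 56 and 0 to 5 at day 112. In LON they ran from 17 to 20 at day 5, 15 to 15 at day 10, 3 to 6 at day 21, 1 to 5 at day 56 and 0 to 3 at day 112. The extremes at day 112 came without control array 3, and the 5 at LON day 56 without LON array 2. Without the 3 discordant arrays LON day 56 had 5 genes. For days 5 and 10 against days 56 and 112, leaving out the LON pools gave 0, the control pools 0 and the LUN pools 4, and the control arrays alone gave 5. Control arrays gave 2 for day 10 against day 5 and 5 for day 21 against day 10. With the array number as a replicate block the counts were 6, 3, 4, 3 and 0 in LUN and 23, 16, 5, 1 and 0 in LON from day 5 to day 112; the arrays share only a number, and no count moved by over 1.5 times. The causes were not tested beyond what each setting itself removes. Dim signals near the background of the arrays limit the folds of genes that are low in 1 of the pools compared.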

Other observations

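Among the genes not described above, Krt79, a keratin of the hair canal and the sebaceous duct, had signals of 4957, 6045 and 5987 in control and 15560, 15940 and 15750 in LON at day 5, a difference of 1.48 ± 0.44 log2 units that did not pass (limma, adjusted p = 0.0767). Krt23, a type I keratin of simple epithelia, did pass and was 3.98-fold higher in LON at day 5 (1065, 1185 and 1116 in control, 4218, 4265 and 4933 in LON). Skeletal muscle genes, which mark a tissue other than epithelium, also differed between pools. In LON all 10 measured were higher than control at days 10 and 56 and lower at days 21 and 112. At day 5, where the number of the 64 genes called in LON was largest, 2 of the 10 muscle genes were lower and 0 higher. At day 10, with 17 of the 64 genes higher in LON, all 10 muscle genes were higher too. Any tie between the muscle and the epithelial genes was not tested.

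Sprr2d, Sprr1b and Krt90 were bright together on single arrays, LUN day 5 array 3 and LON day 21 array 3. There each was over 8-fold above both other arrays of the pool. At LON day 56 Sprr2d was bright on more than 1 array. Sprr2d had 14860 on LUN day 5 array 3, 6268 on LON day 21 array 3, and 13610 and 9510 on LON day 56 arrays 1 and 3, against 261.1 on the second array of that last pool. Krt90 had 12490, 10760, 35320 and 2646 on the same 4 arrays. The 3 arrays of a pool carry the same RNA. None of the 3 genes was called in any comparison.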
